A study of Mus musculus with 9 samples.

Results

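TFEB, TFE3 and MITF are basic helix-loop-helix transcription factors that switch on lysosomal and autophagy genes. The analysis concerned 10 genes: these 3 factors (Tfeb, Tfe3 and Mitf), the folliculin complex (Flcn, Fnip1 and Fnip2), the Rag GTPases Rragc and Rragd, the lysosomal calcium channel Mcoln1 and the repressor Zkscan3. They were chosen by symbol as a pathway from a table of 47643 genes. All 10 were detected and passed the filter on low counts, Rragd with only 0 to 61 reads per library. No difference between the genotypes in any of them passed an adjusted p of 0.05. Flcn was lower in all 3 WT libraries than in any other library of the study, at 40.2 to 41.3 CPM (library-scaled counts) against 43.0 to 78.5. The libraries of TKO and WT did not overlap in 14.4% of all genes tested, and those of δKO and WT in 11.5%. Lack of overlap in 1 of the 10 genes is near that background.

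Bulk RNA-seq libraries were made from donor-derived long-term hematopoietic stem cells (LT-HSCs, gated as Lin-cKit+Sca1+Flk2-CD48-CD150+) of mouse bone marrow, with 3 libraries for each of 3 genotypes. TKO donors were Pik3ca lox/lox; Pik3cb lox/lox; Pik3cd-/- and carried Mx1-Cre. δKO donors had the same 3 alleles without Cre, so by genotype they lacked Pik3cd alone. WT donors had no targeted PI3K allele but carried Mx1-Cre. The donors were of the C57BL/6 strain, and their marrow was transplanted into irradiated B6.SJL recipients of 6 to 8 weeks of age. Recipients of all 3 genotypes received 2 injections of 250 μg of pIpC, 48 hours apart, and marrow was taken 4 weeks later. pIpC induces interferon, which drives Cre from the Mx1 promoter, and excision is not limited to stem cells but takes place in donor blood cells at large. According to the protocol, marrow of the 7 recipients in a group was pooled before sorting. Nothing says that the libraries of a genotype came from separate animals, so p-values measure the spread between these libraries, which may be technical. WT differed from δKO by Cre and by the lox alleles of Pik3ca and Pik3cb as well as by Pik3cd. The contributions of these to any difference between WT and δKO cannot be told apart. TKO differed from δKO by Cre itself together with the loss of Pik3ca and Pik3cb, and these cannot be told apart either. The study describes δKO as littermate controls and WT only as controls.

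When amino acids are plentiful, the Rag GTPases hold mTORC1 at the surface of the lysosome, where it phosphorylates TFEB and TFE3 and keeps them in the cytoplasm. Folliculin, together with FNIP1 or FNIP2, activates RagC and RagD as a GTPase-activating protein and so permits that phosphorylation. On starvation the factors are dephosphorylated by calcineurin, which calcium released through MCOLN1 activates, and enter the nucleus, where they bind the CLEAR element. This regulation acts on the proteins, and the transcript level shows neither phosphorylation nor location.

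The core of the CLEAR element is the E-box CACGTG, a palindrome that reads the same on both strands, and its extended form TCACGTGA contains it. The genes of the pathway were searched for these letters in windows from 250 bases before to 50 after the start site (RefSeq, GRCm38.p6). Windows were found for 9 of the 10 genes, all but Zkscan3, with 14 windows in all since Tfeb, Tfe3 and Mitf have several. An E-box lay in 3 of the 14 windows and so in 3 genes, Fnip1, Mcoln1 and Rragc. Of all 32851 windows, 7.15% held an E-box and 0.974% held the extended form, or 8.09% and 1.12% of the 27025 genes. Mcoln1 was the only one of these genes with the extended form. The matches are shown because they are the letters these factors are known to bind. Each line gives 30 bases of the strand of the gene with the E-box in capitals.
Fnip1, chr11:54438092-54438121, plus strand, 75 bases before the start site: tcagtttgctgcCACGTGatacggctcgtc
Mcoln1, chr8:3500436-3500465, plus strand, 71 bases before the start site: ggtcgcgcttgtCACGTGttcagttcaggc
Mcoln1, chr8:3500462-3500491, plus strand, 45 bases before the start site: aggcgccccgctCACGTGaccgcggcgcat
Rragc, chr4:123917309-123917338, plus strand, 112 bases before the start site: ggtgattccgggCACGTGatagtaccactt
A match is a description of the sequence, and binding was not measured.

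Library depth was 31300343 to 60386097 counted reads, and levels are given as CPM, the count relative to the TMM-scaled library total. Libraries δKO replicate 1 and an unnumbered δKO library stood apart, with 18180 and 18500 genes detected, against 19703 to 22703 in the other 7. The mitochondrial ribosomal RNAs mt-Rnr1 and mt-Rnr2 took 8.64% of the counts in TKO replicate 1, 6.88% in TKO replicate 3 and 9.63% in δKO replicate 1, against 14.4% to 17.1% in the other 6 libraries. The part of this share in the differences between TKO and WT was not tested. All 10 HSC markers were detected in every library, and at most 1 of 4 T cell markers was. All 10 neutrophil markers were also detected in every library, and their summed level was 5555 to 12870 CPM in WT, 277 to 12800 in δKO and 169.5 to 3413 in TKO. Of the genes targeted by Cre, Pik3cb was 56.2 ± 10.1 CPM (SD, n = 3) in WT against 31.0 ± 4.77 in TKO, whereas Pik3ca was 57.1 ± 10.1 against 60.2 ± 7.59. In δKO, where neither is deleted, they were 67.7 ± 33.9 and 59.2 ± 25.4 CPM. Pik3cd, deleted in the germline of δKO and TKO, was at 116 ± 20.5 CPM in WT. It was at 66.9 ± 26.6 CPM in δKO and at 72.6 ± 1.25 in TKO, so reads of the gene remained in both. Counts cover whole genes, and the loss of single exons is not seen in them. In bulk RNA, fewer cells with a transcript and less transcript per cell cannot be told apart.

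Tfeb (ENSMUSG00000023990.18, chromosome 17 of mm10, 47737030 to 47792419) was the most even of the 3 factors in WT and the least even in δKO. It was measured at 8.80, 7.81 and 7.74 CPM in WT replicates 1 to 3. In δKO it was 17.3 CPM in replicate 1, 7.76 in replicate 2 and 0.516 in the unnumbered library, which held only 14 reads of the gene. In TKO it was 10.3, 7.85 and 12.97 CPM. The δKO libraries thus held both the highest and the lowest value of the study, 33.5-fold apart, against 1.14-fold in WT and 1.65-fold in TKO. All 3 TKO libraries lay above the lowest 2 WT libraries and the 2 genotypes overlapped. TKO differed from WT by 0.35 on the log2 scale (95% interval −1.59 to 2.30), or 1.28-fold with an interval from 0.331 to 4.93. The log2 difference was 0.17 without TKO replicate 3 and 0.52 without TKO replicate 2. Between TKO and δKO, Tfeb differed by 0.29 on the log2 scale, by 1.31 without δKO replicate 1 and by −0.27 without the unnumbered δKO library.

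Tfe3 (ENSMUSG00000000134.17, chromosome X, 7762560 to 7775202) had the most transcript per length of the 3 factors in 8 of the 9 libraries, all but the unnumbered δKO library. Its values were 32.2, 18.4 and 31.0 CPM in WT. In δKO they were 47.0 and 33.5 CPM in replicates 1 and 2 and 10.7 in the unnumbered library. In TKO they were 46.9, 38.5 and 23.4 CPM. The highest 2 TKO libraries lay above every WT library, but TKO replicate 3 lay among them. TKO differed from WT by 0.42 on the log2 scale (SE 0.512, 95% interval −0.70 to 1.54), by 0.18 without TKO replicate 1 and by 0.65 without TKO replicate 3. The unnumbered δKO library was the lowest of all 9 for Tfe3 as for Tfeb.

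Mitf (ENSMUSG00000035158.15, chromosome 6, 97807052 to 98021349), the melanocyte and mast cell member of the family, was measured at 9.84, 8.16 and 5.97 CPM in WT. It was 17.6 and 11.7 CPM in δKO replicates 1 and 2 and 9.14 in the unnumbered library. It was 3.02, 9.62 and 10.5 CPM in TKO. TKO replicate 1 held the lowest value of the study, TKO replicate 2 lay within the WT range and TKO replicate 3 above it. The difference was −0.049 between TKO and WT on the log2 scale (SE 0.625), −0.73 between TKO and δKO (SE 0.629) and 0.68 between δKO and WT (SE 0.628). The second of these was −0.35 without TKO replicate 1, and the last was 0.38 without δKO replicate 1. The markers of mast cells and basophils, which also express Mitf, summed to 11.4 to 23.6 CPM in WT, 7.30 to 30.2 in δKO and 2.12 to 11.9 in TKO. Their part in the level of Mitf was not tested.

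The fourth gene of the family, Tfec, is not one of the 10 genes but was listed as their paralog, and it had more transcript per length than Tfeb, Tfe3 or Mitf in every library but δKO replicate 1. Its 3 WT libraries held 66.5, 78.6 and 54.6 CPM and its 3 TKO libraries 42.7, 64.2 and 41.8. In δKO it was 18.3 CPM in replicate 1, 62.3 in replicate 2 and 126 in the unnumbered library. Tfec is known from the macrophage lineage, and monocyte and macrophage markers summed to 168 to 418 CPM in WT, 89.8 to 477 in δKO and 48.3 to 241 in TKO. Their part in the level of Tfec was not tested.

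Counted per kilobase of merged exons, Tfec made up 63.2% to 75.0% of the summed level of the 4 MiT/TFE genes in WT and 50.9% to 61.8% in TKO. In δKO its share ran from 23.0% in replicate 1 to 89.2% in the unnumbered library. Tfe3 held 10.6% to 21.7% in WT and 18.1% to 33.7% in TKO. Tfeb held 7.36% to 8.84% in WT and 7.45% to 16.4% in TKO, and Mitf held 6.24% to 8.59% and 3.25% to 12.1%. The 2 unusual δKO libraries thus differed in which factor dominated, whereas all WT and TKO libraries had Tfec first and Tfe3 second. The shares depend on the length given to each gene. With the longest coding transcript in place of merged exons, a setting chosen after the data were seen, Tfec held 69.1% to 80.9% in WT and 55.9% to 68.3% in TKO.

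**Figure D1:**
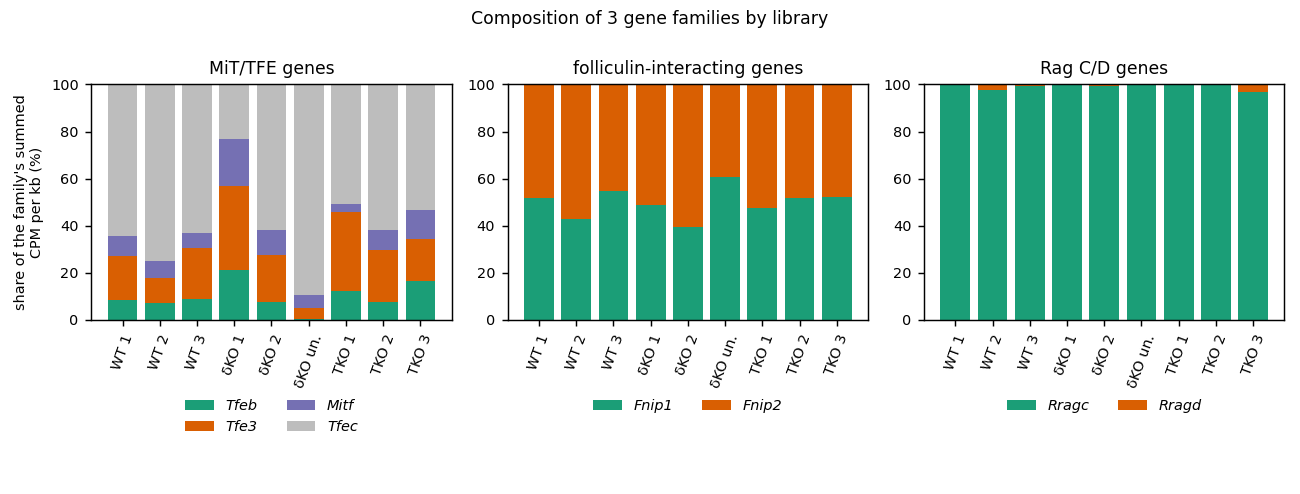
Stacked bars give, for each of the 9 libraries, the share (%) of each gene in the summed CPM per kb of its family: Tfeb, Tfe3, Mitf and Tfec (left), Fnip1 and Fnip2 (middle), Rragc and Rragd (right). "δKO un." is the unnumbered δKO library. Tfec filled 23.0% to 89.2% of a bar, Fnip1 and Fnip2 shared theirs about evenly, and Rragd filled at most 3.43%.

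Flcn (ENSMUSG00000032633.12, chromosome 11, 59791408 to 59810016), which encodes folliculin, was the member with the most even level in WT. Its values there were 40.2, 41.3 and 40.5 CPM. In δKO they were 43.0 and 45.0 CPM in replicates 1 and 2 and 57.6 in the unnumbered library. In TKO they were 62.8, 78.5 and 46.8 CPM. All TKO and all δKO libraries lay above all WT libraries, and TKO and δKO overlapped. TKO exceeded WT by 0.62 on the log2 scale, a 1.54-fold difference (95% interval of the fold 0.992 to 2.39). The quasi-likelihood test of edgeR gave an unadjusted p of 0.0537 and a Benjamini-Hochberg adjusted p of 1.00 over 18205 genes. Against WT, δKO differed by 0.25 (95% interval −0.38 to 0.89), and TKO differed from δKO by 0.37 (−0.27 to 1.00). The difference between δKO and WT was 0.11 without the unnumbered δKO library, 0.17 with at least 10 counts required in every library, 0.098 with upper-quartile factors, 0.0022 with genes detected per library as a covariate and 0.0090 with the replicate block, which also leaves out that library. Between TKO and δKO it was 0.17 without TKO replicate 2 and 0.58 with the block.

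The sign of the Flcn difference between TKO and WT was positive under each of 18 alternatives, from 0.43 without TKO replicate 2 to 0.80 without TKO replicate 3. The unadjusted p was 0.0177 with DESeq2 on these 2 genotypes (adjusted p = 0.209). In edgeR it was 0.0271 with only the groups compared and 0.0329 without TKO replicate 3. It was 0.0353 without δKO replicate 1 and 0.0492 without the unnumbered δKO library. It was 0.203 without TKO replicate 2, and from 0.104 to 0.121 without TKO replicate 1 or any 1 WT library. The other edgeR fits gave 0.0520 to 0.109. The adjusted p from edgeR and DESeq2 ranged from 0.209 to 1.00 over the alternatives. Marker sums also separated these 2 genotypes. The summed HSC markers were 1369 to 1662 CPM in WT and 1937 to 2400 in TKO. The summed neutrophil markers were lower in all TKO than in all WT libraries (values above). The summed osteoclast markers were 6.10 to 12.4 CPM in WT and 1.31 to 5.43 in TKO. The part of these markers in the level of Flcn was not tested. The share of mitochondrial ribosomal RNA was 8.64%, 15.7% and 6.88% in TKO replicates 1 to 3, against 14.4% to 16.8% in WT. Its part in the level of Flcn was not tested either.

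Fnip1 and Fnip2 encode the partners without which folliculin is inactive. Fnip1 (ENSMUSG00000035992.15, chromosome 11, 54438199 to 54518235) was measured at 31.9, 36.6 and 55.5 CPM in WT. It was 65.4 and 31.7 CPM in δKO replicates 1 and 2, 49.5 in the unnumbered δKO library, and 34.6, 47.2 and 55.5 in TKO. The WT and TKO ranges were nearly the same. Fnip2 (ENSMUSG00000061175.11, chromosome 3, 79455974 to 79567796) was measured at 34.9, 57.2 and 53.7 CPM in WT. It was 80.3 and 56.7 CPM in δKO replicates 1 and 2, 37.8 in the unnumbered δKO library, and 44.6, 51.4 and 59.6 in TKO. In TKO against WT the fold was 1.11 for Fnip1 (95% interval 0.639 to 1.92) and 1.07 for Fnip2 (0.638 to 1.79), so a 2-fold change lay outside both intervals.

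The partners were expressed at similar levels per length. Fnip1 held 42.9% to 54.8% of their summed CPM per kb in WT, 39.6% to 60.6% in δKO and 47.7% to 52.2% in TKO. Neither partner was the larger in all libraries of any genotype.

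Rragc (ENSMUSG00000028646.16, chromosome 4, 123917446 to 123936997) encodes RagC, the substrate of folliculin. It was measured at 24.1, 32.1 and 26.8 CPM in WT and at 18.3, 29.5 and 23.5 in TKO. In δKO it was 63.4 CPM in replicate 1, 31.8 in replicate 2 and 26.6 in the unnumbered library. Replicate 1 of δKO was the highest by far and the other 2 δKO libraries lay within the WT range. On the log2 scale, TKO differed from WT by −0.22 (SE 0.402) and from δKO by −0.77 (SE 0.404, adjusted p = 0.536 in edgeR's quasi-likelihood test). The first of these was −0.064 without TKO replicate 1, −0.41 without TKO replicate 2 and −0.35 with genes detected per library as a covariate. The second was −0.30 without δKO replicate 1 and −1.0 without the unnumbered δKO library (unadjusted p = 0.0303, adjusted p = 0.503 in edgeR). A gene on the opposite strand, 4930535I16Rik, overlaps an exon of Rragc and had 13 reads over all libraries.

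Rragd (ENSMUSG00000028278.14, chromosome 4, 32983037 to 33022180) encodes RagD, which can stand in for RagC and is itself known as a target of these factors. It was close to undetected. Its reads numbered 7, 60 and 13 in WT, 6, 21 and 0 in δKO, with the 0 in the unnumbered library, and 2, 1 and 61 in TKO. Single libraries of WT and of TKO held most of the reads, and no ratio between genotypes could be measured (95% interval of the log2 fold change −4.02 to 3.63 in TKO against WT). Its level per length was at the 4.05 percentile of the genes kept in WT. Rragc made up 97.8% to 99.7% of the summed CPM per kb of the pair in WT, 99.2% to 100% in δKO and 96.6% to 99.9% in TKO. Rragc lies 25.7 and Rragd 117 megabases from Pik3cd, the gene deleted in the germline of δKO and TKO, on the same chromosome.

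Mcoln1 (ENSMUSG00000004567.16, chromosome 8, 3500457 to 3515232) was measured at 24.3, 47.8 and 40.9 CPM in WT and at 25.8, 30.7 and 54.5 in TKO. In δKO it was 13.9 CPM in replicate 1, 36.3 in replicate 2 and 14.2 in the unnumbered library. The 2 low δKO libraries lay below all others, and replicate 2 lay among them. On the log2 scale, TKO differed from WT by −0.027 (95% interval −1.07 to 1.02) and from δKO by 0.78 (−0.27 to 1.84), and δKO differed from WT by −0.81 (−1.86 to 0.24). For the last 2 of these, edgeR's adjusted p was 0.590 and 0.733. Without δKO replicate 2 they were 1.39 and −1.42 (unadjusted p = 0.0146 and 0.0134), and with genes detected per library as a covariate they were 0.30 and −0.040. With the replicate block they were 0.45 and −0.48, and without TKO replicate 3 the first was 0.40.

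Zkscan3 (ENSMUSG00000021327.18, chromosome 13, 21387003 to 21402755), a zinc finger gene described as a repressor of autophagy genes, was measured at 24.8, 18.9 and 12.0 CPM in WT. It was 12.9 and 28.8 CPM in δKO replicates 1 and 2 and 14.1 in the unnumbered δKO library. It was 10.5, 25.1 and 16.8 CPM in TKO. The 3 genotypes covered similar ranges, with means of 18.6, 18.6 and 17.4 CPM. TKO differed from WT by −0.090 on the log2 scale (95% interval −1.22 to 1.04). Zinc finger genes are similar in sequence, and how reads shared between them were counted is not given in the sources used here.

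**Figure D2:**
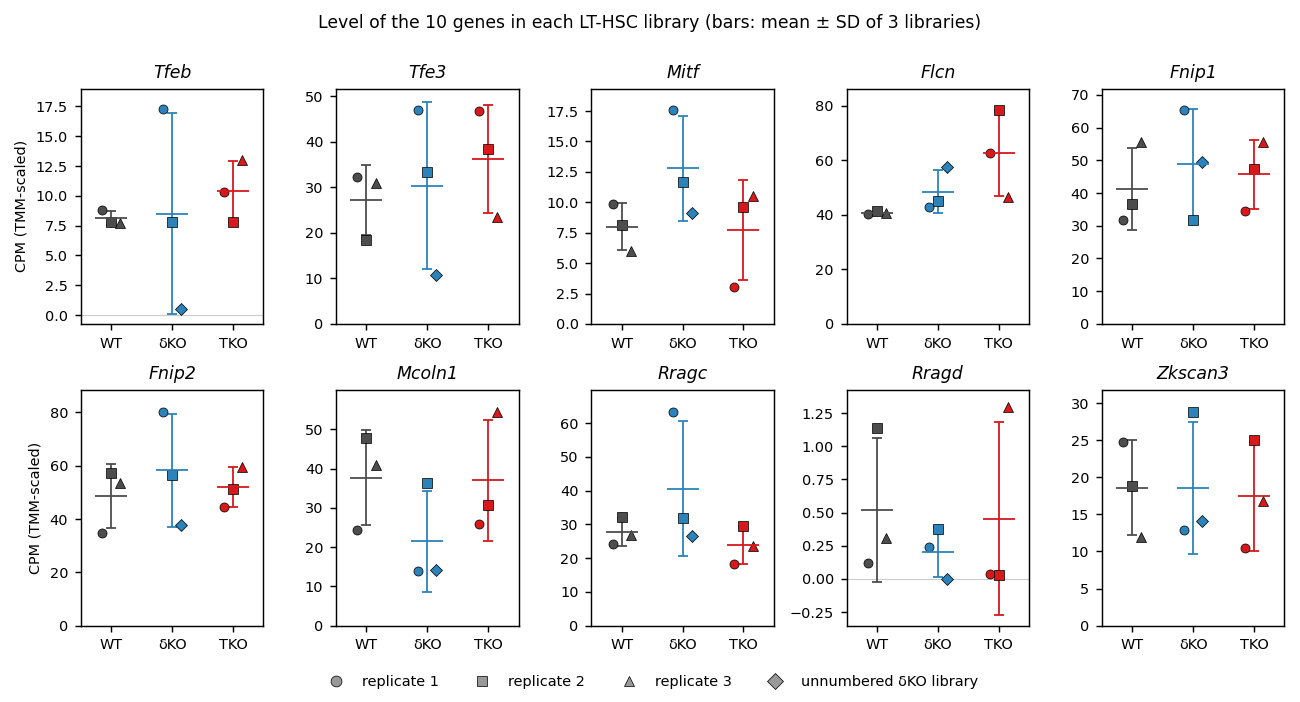
Each panel plots the level (CPM, TMM-scaled) of 1 gene in the 9 libraries, by genotype; the symbol shape gives the replicate number and the horizontal and vertical bars give the mean ± SD of 3 libraries. Flcn was between 40.2 and 41.3 CPM in WT and above that in every other library, whereas Tfeb ranged from 0.516 to 17.3 CPM within δKO. Over all genes tested, 14.4% did not overlap between TKO and WT and 11.5% between δKO and WT.

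Levels of different genes were compared per kilobase of merged exons. In WT, Flcn was highest at 9.41 ± 0.131 CPM per kb (SD, n = 3), followed by Rragc at 8.28 ± 1.23. Their ranges overlapped. Fnip2, Fnip1 and Mcoln1 came next at 5.81 ± 1.43, 5.80 ± 1.76 and 4.99 ± 1.60 CPM per kb, each overlapping its neighbor. Below them came Tfe3 at 2.94 ± 0.829, Zkscan3 at 2.33 ± 0.802, Tfeb at 1.43 ± 0.105 and Mitf at 1.29 ± 0.313 CPM per kb, and again neighbors overlapped. Rragd was last at 0.101 ± 0.105 and lay below all others.

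In TKO, Flcn was at 14.5 ± 3.67 CPM per kb and all its libraries lay above those of Rragc, at 7.11 ± 1.68. In δKO, Rragc came first at 12.1 ± 5.95 and Flcn second at 11.2 ± 1.83 CPM per kb, with overlapping ranges. Among the genes kept, Flcn stood at the 76.5, 77.2 and 85.1 percentile of CPM per kb in WT, δKO and TKO, and Tfeb at the 34.3, 36.3 and 38.5 percentile. The order depends on gene length. With the longest coding transcript as the length, Mcoln1 came first in WT at 18.2 CPM per kb, before Flcn at 11.8 and Rragc at 10.7, and 17 of the 30 levels moved by more than 1 SD.

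Of the 10 genes, 0 passed an adjusted p under 0.05 with more than 2-fold change between TKO and WT, 0 between TKO and δKO and 0 between δKO and WT. Over all 18205 genes tested, edgeR's quasi-likelihood test passed 0.00549%, 0% and 0.00549%. At an unadjusted p under 0.05 in that test, 0 of the 10 genes passed in any of the 3 comparisons, beside 4.19%, 10.2% and 7.01% of all genes. Under the alternatives, Flcn passed that limit between TKO and WT with DESeq2 and in some edgeR fits. Mcoln1 and Rragc also passed it with 1 δKO library left out (values above). At the adjusted threshold, DESeq2 on the 2 genotypes compared also passed 0 of the 10 genes in each, beside 3.04%, 1.56% and 1.05% of all genes. Genes whose libraries did not overlap between the genotypes numbered 1 of 10 between TKO and WT and 1 of 10 between δKO and WT, in both cases Flcn, and 0 of 10 between TKO and δKO. The share over all genes was 14.4%, 11.5% and 11.7% in that order, so the count of 1 is near the background.

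The median log2 fold change of the 10 genes was 0.034 between TKO and WT, 0.080 between TKO and δKO and 0.20 between δKO and WT. With each library left out in turn they ran from −0.039 (without TKO replicate 3) to 0.25 (TKO replicate 1), from −0.21 (the unnumbered δKO library) to 0.27 (δKO replicate 2), and from −0.033 (δKO replicate 1) to 0.36 (the unnumbered library). The medians of all genes were 0.017, −0.055 and 0.046. The signs of the 10 genes were split 5 and 5 between TKO and WT and between TKO and δKO, and 8 were higher and 2 lower in the comparison of δKO with WT. With upper-quartile factors that last split was also 5 and 5. Scaling with upper-quartile factors moved the median of all genes to 0.083 between TKO and δKO and to −0.10 between δKO and WT. The genes with an unadjusted p under 0.05 were split 838 higher and 1013 lower in TKO against δKO, and 984 and 666 with those factors. In δKO against WT the split was 664 and 612, and 371 and 717.

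**Figure D3:**
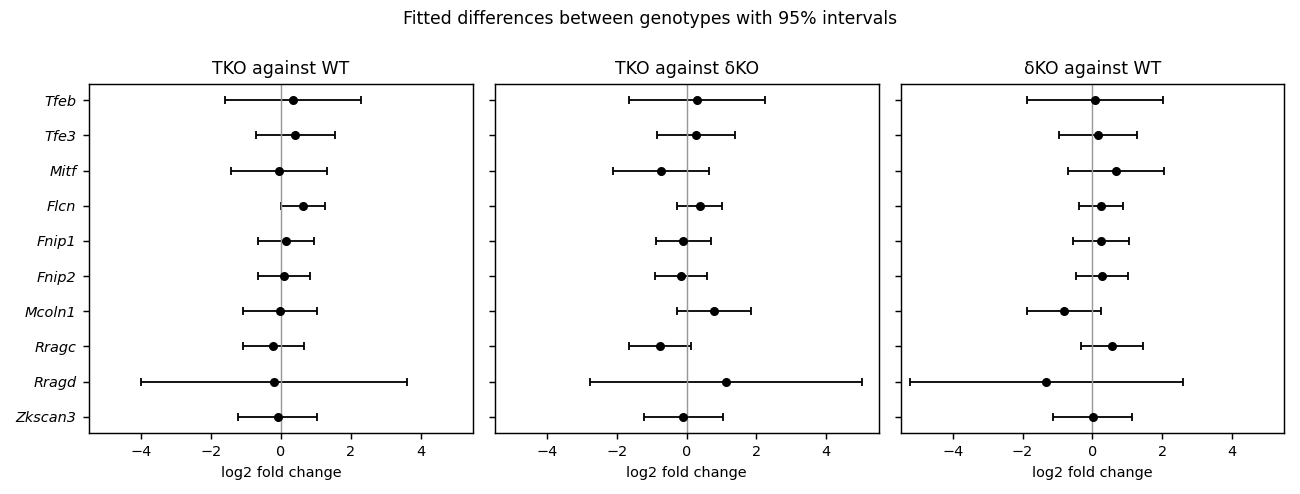
Points give the log2 fold change of each of the 10 genes in the 3 comparisons, and bars give its 95% interval from edgeR's quasi-likelihood fit. The vertical line marks no difference; every interval crosses it, the one for Flcn in TKO against WT by −0.012, and those of Rragd are the widest.

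The libraries of δKO were the least alike. The ratio of the highest to the lowest library, as a median over the 10 genes, was 1.70 over the WT libraries, 2.31 over δKO and 1.84 over TKO, and for all genes it was 1.90, 4.47 and 2.33. The ratio was over 2 for 2 of the 10 genes in WT, 8 in δKO and 5 in TKO, beside 47.0%, 76.4% and 57.5% of all genes. δKO replicate 1 held the highest of the 9 values for 6 of the 10 genes (Tfeb, Tfe3, Mitf, Fnip1, Fnip2 and Rragc) and the lowest for Mcoln1. It held the highest value for 23.7% of all genes kept and the lowest for 29.0%. The unnumbered δKO library held the lowest value for Tfeb, Tfe3 and Rragd, and for 19.7% of all genes.

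The genes whose log2 CPM followed a factor most closely over the 9 libraries were found as a description. For Tfeb they were Bicra (r = 0.988), Vipr2 (r = 0.987) and Fbxo4 (r = 0.984). For Tfe3 they were Kif3b (r = 0.955), Rfc1 (r = 0.941) and Terc (r = 0.940). For Mitf they were 1110008L16Rik (r = 0.951), Tmtc3 (r = 0.928) and Dhx34 (r = 0.924). The 9 points of each share the scaling and the 2 unusual δKO libraries. Between Tfeb and Tfe3 r was 0.803, and between Tfeb and Mitf it was 0.063.

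The other genes of the pathway were taken from 7 lists with 92 genes tested. None of the 92 was called between TKO and WT, between TKO and δKO or between δKO and WT by edgeR's quasi-likelihood test. At an unadjusted p under 0.05, TKO was above WT in 1 gene and below it in 3 (4.35% of the 92, beside 4.19% of all genes). Between TKO and δKO, 2 were higher and 9 lower in TKO (12.0%, beside 10.2%). Between δKO and WT, 8 were higher and 1 was lower in δKO (9.78%, beside 7.01%). Their medians were −0.083, −0.25 and 0.17 on the log2 scale.

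The Rag-Ragulator list holds the other Rag GTPases and the scaffold that ties them to the lysosome, with 10 genes tested. In TKO against WT the median of its log2 fold changes was −0.40, and 7 of the 10 were negative. The median was −0.22 without TKO replicate 2 and −0.27 with genes detected per library as a covariate. Between these genotypes 2 genes were lower and 1 higher without overlap, beside 14.4% of all genes in either direction. Lamtor4, a scaffold subunit, was 15.3, 15.2 and 22.8 CPM in WT, 48.8, 25.3 and 18.7 in δKO and 5.01, 12.9 and 14.7 in TKO. All 3 TKO libraries lay below all others, at −1.51 on the log2 scale against δKO (unadjusted p = 0.0163, adjusted p = 0.465 in edgeR's quasi-likelihood test). Lamtor2, another subunit, was 76.6, 66.0 and 40.8 CPM in WT and 31.3, 32.5 and 32.1 in TKO, also without overlap. The higher one was Slc38a9, an arginine sensor of the lysosomal membrane, at 0.34 on the log2 scale (SE 0.418). In δKO Lamtor2 ran from 6.74 CPM in replicate 1 to 138 in the unnumbered library. Rragb, the gene of RagB, had less transcript per length than Rraga in every library but TKO replicate 2. Rragb was 2.37, 9.54 and 5.80 CPM in WT and 17.2, 18.6 and 5.59 in TKO. It made up 8.83% to 22.4% of the summed CPM per kb of Rraga and Rragb in WT and 21.3% to 56.5% in TKO, and the ranges overlapped.

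The GATOR and KICSTOR list holds amino acid sensors, GATOR1 with KICSTOR, which inactivate the Rags, and GATOR2, which opposes GATOR1, with 17 genes tested. Its median was 0.18 in TKO against WT and 0.47 in δKO against WT. The first became −0.12 without TKO replicate 1, 0.031 without TKO replicate 2, 0.064 without WT replicate 1, 0.28 without WT replicate 2, 0.041 with genes detected per library as a covariate and −0.042 with the replicate block. The other became −0.038 without δKO replicate 1 and 0.10 with that covariate. Between TKO and WT, 2 genes were higher without overlap (Sesn1 at 0.51 and Sesn3 at 0.52 on the log2 scale, both sestrins, which inhibit GATOR2) and 3 were lower (Depdc5, Sec13 and Itfg2), beside 14.4% of all genes. The highest values of Castor2, Depdc5 and Wdr24 lay in δKO replicate 1. Castor2 was 458 CPM in δKO replicate 1 and between 10.8 and 37.1 in the other 8 libraries. Its log2 fold change in TKO against δKO went from −2.64 to 0.40 without that library. Depdc5, a subunit of GATOR1, was 241 CPM in the same library, 63.0 and 64.8 in the other δKO libraries, 62.1 to 73.3 in WT and 52.5 to 56.3 in TKO. All TKO libraries lay below all WT and δKO libraries, with a difference from WT of −0.32 (SE 0.451). Wdr24, of GATOR2, was 43.6 CPM in δKO replicate 1, 38.8 in the unnumbered δKO library and between 5.53 and 21.6 in the other 7.

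The list of proteins that set the location of TFEB (calcineurin, kinases, 14-3-3 proteins and the exporter) had 15 genes tested and medians of −0.10, −0.18 and 0.18. The first became 0.014 without WT replicate 1 and −0.012 without TKO replicate 3. The last became −0.0029 without δKO replicate 1. Ppp3cb, a catalytic subunit of calcineurin, was 96.7, 97.1 and 77.8 CPM in WT and 74.4, 61.6 and 65.8 in TKO. All TKO libraries lay below all WT libraries, at −0.43 on the log2 scale (SE 0.238, unadjusted p = 0.0986 in edgeR's quasi-likelihood test). Ppp3r1, its regulatory subunit, was 202, 105 and 96.2 CPM in δKO and 54.4, 87.6 and 76.6 in TKO. Xpo1, the exporter, was 108, 136 and 119 CPM in WT and 81.6, 116 and 103 in TKO, and these overlapped.

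The AMPK list had 8 genes tested and medians of −0.049, −0.075 and 0.039. Each of these changed sign with a library left out, the first to 0.077 without WT replicate 1, the next to 0.027 without δKO replicate 2 and the last to −0.11 without WT replicate 3. Prkag2, a regulatory subunit, was 31.2, 42.9 and 60.8 CPM in WT, 116, 49.1 and 107 in δKO and 58.9, 60.2 and 60.6 in TKO. Prkaa1, a catalytic subunit, was 99.6 CPM in δKO replicate 1 and between 31.4 and 51.4 in the other 8 libraries. Prkab1, the scaffold, was 26.9 to 56.5 CPM in WT and 36.5 to 51.0 in TKO.

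The lysosomal channels had 8 genes tested and medians of 0.029, 0.20 and −0.075. With each library left out in turn these ran from −0.17 (TKO replicate 3) to 0.20 (TKO replicate 2), from 0.11 (TKO replicate 1) to 0.60 (δKO replicate 1) and from −0.50 (the unnumbered δKO library) to 0.046 (δKO replicate 1). Mcoln2, a paralog of Mcoln1, was 12.0, 12.2 and 14.3 CPM in WT, 3.19, 9.76 and 6.89 in δKO and 11.7, 26.0 and 19.5 in TKO. All δKO libraries were below all WT and all TKO libraries, at 1.52 on the log2 scale in TKO against δKO (unadjusted p = 0.0199, adjusted p = 0.465 in edgeR's test). Low δKO values were thus seen in 3 of 3 libraries for Mcoln2 and in 2 of 3 for Mcoln1. They were not limited to these genes. Of the 8 channels, 3 were lower in all δKO than in all WT libraries (Mcoln2, Tpcn2 and Tmem175), beside 11.5% of all genes in either direction. Mcoln3 was 0.0765 CPM in TKO replicate 1, 6.71 and 3.31 in TKO replicates 2 and 3, and at most 1.66 in the other 6 libraries. P2rx4, an ATP-gated channel, was 32.0, 35.6 and 38.4 CPM in WT and 48.1, 67.3 and 54.6 in TKO, without overlap (log2 fold change 0.68, SE 0.471). Clcn7 was lower without overlap (−0.79).

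The CLEAR list holds 30 lysosomal and autophagy genes known as targets of TFEB, of which 29 were tested. In TKO against WT, 23 of the 29 log2 fold changes were negative, with a median of −0.20 where all genes had 0.017. In 7 genes all TKO libraries lay below all WT libraries (Ctsb, Gla, Neu1, Pip4p1, Atp6v0d1, Clcn7 and Cd63) and in 0 genes above, beside 14.4% of all genes in either direction. Ctsb, Neu1 and Pip4p1 had an unadjusted p under 0.05, and 0 genes had an adjusted p under 0.05 in edgeR's quasi-likelihood test.

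Ctsb, which encodes cathepsin B, was 204, 167 and 130 CPM in WT, 145, 166 and 136 in δKO and 74.0, 104 and 90.0 in TKO. The TKO libraries lay below all others, at −0.90 on the log2 scale against WT (SE 0.250, unadjusted p = 0.00371). Neu1, the lysosomal sialidase, was 42.0, 34.9 and 20.3 CPM in WT, 9.21, 21.5 and 42.0 in δKO and 11.4, 10.1 and 7.82 in TKO. Its difference between TKO and WT was −1.73 (SE 0.552, unadjusted p = 0.00897), and δKO spanned both. Scpep1, a serine carboxypeptidase, went the other way, with 17.6, 11.2 and 22.9 CPM in WT and 32.8, 44.5 and 11.9 in TKO, and these overlapped. DESeq2 on TKO and WT called 2 of the 29 genes, beside 3.04% of all genes. Ctsb had an adjusted p of 0.0318 in that DESeq2 fit with less than 2-fold change, and 0.0757 with DESeq2 on all libraries. The 2 called were Neu1 (adjusted p = 0.000546) and Gla, α-galactosidase A (log2 fold change −1.42, adjusted p = 0.000262), named here after its values were seen. With DESeq2 on all 9 libraries neither was called (adjusted p = 0.143 for Neu1 and 0.696 for Gla), and the unadjusted p of Gla in edgeR was 0.0650.

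The median of the CLEAR list in TKO against WT was −0.096 without WT replicate 1 and between −0.27 and −0.17 under the other 17 alternatives. Several of these genes are abundant in granulocytes and macrophages. The summed neutrophil markers were lower in all TKO than in all WT libraries, at 169.5 to 3413 and 5555 to 12870 CPM. Of the single markers, S100a8, Ngp, Camp and Ctsg were also lower without overlap. The others overlapped, such as Mpo with 1693 CPM in WT replicate 3 and 1888 in TKO replicate 2. The summed monocyte and macrophage markers overlapped between 48.3 to 241 and 168 to 418. The part of all these markers in the levels of the CLEAR genes was not tested. Against δKO the median of the list was −0.39. It was −0.12 with genes detected per library as a covariate, −0.21 without δKO replicate 1, −0.30 without the unnumbered δKO library, −0.25 with upper-quartile factors, and −0.065 with a replicate block, a fit that also leaves out that library.

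The paralog list holds Tfec and zinc finger genes related to Zkscan3, with 6 genes tested. Of these, 4 were higher in all δKO than in all WT libraries (Zkscan1, Zkscan8, Zkscan14 and Zkscan17), beside 11.5% of all genes in either direction. Zkscan8 was 26.6, 30.6 and 25.8 CPM in WT, 78.1, 34.4 and 74.2 in δKO and 24.2, 35.7 and 36.1 in TKO. The difference between δKO and WT was 1.17 on the log2 scale (SE 0.368, unadjusted p = 0.00823, adjusted p = 0.699 in edgeR's quasi-likelihood test). Zkscan1 was 84.3, 86.5 and 76.9 CPM in WT, 200.4, 115 and 101 in δKO and 114, 120.1 and 91.4 in TKO. Zkscan14 was 12.5, 9.50 and 15.4 CPM in WT, 24.7, 16.9 and 60.6 in δKO and 20.6, 9.10 and 8.77 in TKO. Zkscan3 itself lacked this pattern, since 2 of its 3 δKO values lay within the WT range.

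**Figure D4:**
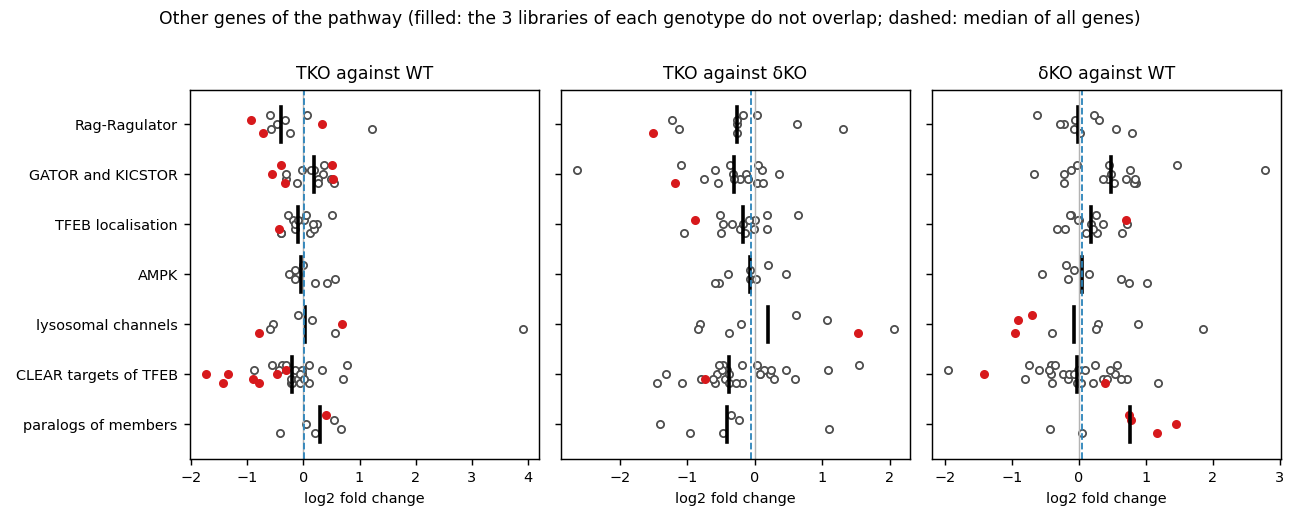
Each circle is the log2 fold change of 1 gene of the 7 pathway lists in the 3 comparisons; filled circles mark genes whose libraries do not overlap between the genotypes, black lines the median of a list and dashed lines the median of all genes. In TKO against WT, the CLEAR list has 7 filled circles on the negative side and 0 on the positive side. Of all genes, 14.4% do not overlap in that comparison, in either direction.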

How the data were processed

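RNA of sorted LT-HSCs was amplified (Ovation RNA-Seq System V2) and sequenced, with 3 libraries for each of 3 genotypes. Per the labels and the study's methods, the authors trimmed reads with Trim Galore 0.3.7, checked them with FastQC 0.11.4, aligned them to mm10 and counted them per gene with STAR 2.5.1b. The deposited file holds raw counts by the authors for 47643 genes, without normalization; the annotation and the use of strand are not given in the sources used here. A deposited table of normalized values was not used. The column of 1 δKO library is numbered differently from its labels, so it was treated as an unnumbered δKO library.

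Identifiers were matched to GENCODE vM21, where 47224 were found without their version. Genes were kept with edgeR's filterByExpr (count minimum 10), which left 18205, and passing in 1 genotype suffices. Counts were scaled with TMM factors and the quasi-likelihood model of edgeR 4.0.16 in R 4.3.3 was fitted with a mean for each genotype over the 9 libraries (6 residual degrees of freedom). Genes were called where the p adjusted by Benjamini-Hochberg was under 0.05 and the fold exceeded 2. The test was two-sided and was tested on simulated data. Depth was 31300343 to 60386097 counts, and the spread between libraries (biological coefficient of variation 0.805) sets the precision.

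The members and lists were chosen with earlier results of these data known. Named were the members, from each list the 3 genes with the smallest unadjusted p in any comparison and a mean of at least 1 CPM, and for each factor the 3 genes with the largest r. Genes named for lack of overlap were named after their values were seen. The alternatives were RLE and upper-quartile factors, no filter, at least 10 counts in every library, the replicate number as a block, genes detected per library as a covariate, only the groups compared, DESeq2 1.42.0 with all 9 libraries or with the 2 genotypes compared, and each library left out. Figures were drawn with matplotlib 3.10.9.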

Additional observations from a re-analysis of the deposited data

How the results depend on the processing

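The 30 log2 fold changes of the 10 genes were recomputed under 18 alternatives, 9 of which leave out a library. Of 536 values, 487 kept their sign, 49 did not and 0 passed the threshold; 12 of the 30 kept it throughout, and 16 of the other 18 were under 0.3 in size. The cause of the changes was not tested. With genes detected per library as a covariate, the values in TKO against WT became 0.26 for Mcoln1 and 0.012 for Zkscan3, in TKO against δKO 0.15 for Fnip1 and −1.55 for Rragd, and in δKO against WT −0.090 for Fnip1 and 1.27 for Rragd. With upper-quartile factors they became 0.088 for Fnip1 in TKO against δKO, and −0.0081 for Tfe3, −0.14 for Tfeb and −0.0997 for Zkscan3 in δKO against WT. With at least 10 counts in every library they became 0.0082 for Fnip1 in TKO against δKO, and −0.053 for Tfeb and −0.058 for Zkscan3 in δKO against WT, and Rragd was not fitted. With only the groups compared, Zkscan3 in δKO against WT became −0.00086, and Rragd did not pass the filter in TKO against δKO.

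The deviations of same-numbered libraries of different genotypes correlated with r from −0.036 to 0.083. In the other pairs of libraries r ran from −0.092 to 0.12. Whether same-numbered libraries share more than the number cannot be told from these values. With the replicate block over the 8 numbered libraries, TKO against δKO became −0.085 for Tfe3, −0.28 for Tfeb and −1.83 for Rragd, and δKO against WT 0.12 for Rragd and −0.081 for Zkscan3. This fit also leaves out the unnumbered δKO library, so its changes cannot be put down to the block alone: without that library and with no block, Tfe3 was −0.15 and Tfeb −0.27 in TKO against δKO. No other sign among the 30 changed in it, and no count of called genes.

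With each library left out in turn, the log2 fold changes whose sign changed ranged as follows. In TKO against WT they ran from −0.011 to 0.42 for Fnip1, −0.099 to 0.22 for Fnip2, −0.41 to 0.18 for Mcoln1, −0.34 to 0.33 for Mitf, −3.83 to 1.07 for Rragd and −0.45 to 0.17 for Zkscan3. In TKO against δKO they ran from −0.33 to 0.17 for Fnip1, −0.40 to 0.13 for Fnip2, −2.51 to 1.90 for Rragd, −0.15 to 0.71 for Tfe3, −0.27 to 1.31 for Tfeb and −0.45 to 0.37 for Zkscan3. In δKO against WT they ran from −0.026 to 0.51 for Fnip1, −0.040 to 0.49 for Fnip2, −0.30 to 0.56 for Tfe3, −0.96 to 0.62 for Tfeb and −0.46 to 0.27 for Zkscan3.

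edgeR called 1 gene in TKO against WT, 0 in TKO against δKO and 1 in δKO against WT. DESeq2 on all libraries called 125, 526 and 191, and on the groups compared 574, 268 and 196. edgeR with only the groups compared called 9 in TKO against WT and 0 in δKO against WT. With a library left out, 1 to 4 were called in TKO against WT, the 4 without δKO replicate 1. Rragd, at 0 to 61 reads per library, had no measurable difference, and no adjusted p bears on changes smaller than the intervals given.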
